A study of Mus musculus with 18 samples.

Results

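The retina of the mouse at postnatal day 7 (P7) was compared between Plk3-KO animals and their WT littermates, on 6 arrays of the 18 in the series. The members are the 3 arrays of P7 Plk3-KO retinas and the 3 arrays of P7 WT retinas, called KO1, KO2, KO3, WT1, WT2 and WT3 after the numbers in their labels. Plk3-KO mice carried a knockout of Plk3, and WT mice came from the same litters without it. Both are labelled as strain C57Bl/6. Per the methods, the line had been partly on a Black Swiss background with the Rd1 allele of Pde6b, and heterozygotes were bred to C57Bl/6 until that allele was lost, so both groups share this history. No Cre driver, sex or pooling of animals is given in the sources used here. The study speaks of biological replicates, and sex-linked transcripts differed between arrays of each genotype, but the labels do not tie single arrays to animals. The remaining arrays held retinas of the same genotypes at birth (P0) and in the adult, 3 per genotype and age, and served to set a scale of development and to estimate the spread.

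Polo-like kinases are serine/threonine kinases known for their roles in mitosis, centrosomes and stress responses. Plk3 is a member studied mostly in cultured cells, where it has been linked to cell cycle entry and to the response to stress. In the first postnatal week the mouse retina completes its last divisions, which give rise to late rods, bipolar cells and Müller glia, while photoreceptors start to build outer segments and synapses form. A whole retina at this age therefore holds falling levels of cell cycle transcripts beside rising levels of photoreceptor transcripts, and in such bulk RNA fewer cells of a type and less RNA per cell cannot be told apart.

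Signals were deposited as log2 MAS5 values from Affymetrix mouse genome arrays, so that a difference of 1 is a factor of 2. Of 45101 probe sets, 64 controls were left out, and 21390 had a mean above 7 in Plk3-KO or WT retinas and were tested, 18736 of them with 1 gene symbol. All 6 arrays carried strong signal for rod genes of the developing retina. Nrl, the transcription factor that commits cells to the rod fate, stood at 14.7, 15.4 and 14.8 in Plk3-KO and at 14.8, 14.4 and 15.4 in WT retinas. Sag, the rod arrestin, stood at 14.6 to 14.9 in Plk3-KO and at 14.4 to 15 in WT retinas. Only 1 of 15 lens genes on the array was tested, Crybb3, at 7.4 to 7.7 in Plk3-KO and 7.5 to 7.8 in WT retinas. The labelled tissue was thus borne out by its markers on each array.

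KO2 and WT3 stood apart from the other 4 arrays, and they did so together although they belong to different genotypes. Over the tested probe sets, KO2 correlated at r = 0.954 with WT3 but at 0.926 with KO1 and 0.922 with KO3. WT3 correlated at 0.919 with WT1 and 0.895 with WT2, and the lowest value of any pair, 0.886, was that of KO3 with WT3. The pairs KO1 with WT1 (0.978) and KO3 with WT2 (0.981) were the closest of all. These correlations run across probe sets, which are not independent replicates. Of the sum of squares between the 6 arrays, the contrast of KO2 and WT3 with the other 4 took 64.9% and the contrast of Plk3-KO with WT took 8.29%. The first of these contrasts was picked after the arrays were seen. After quantile normalization the shares were 55.2% and 10.4%. At P0 and in the adult, genotype took 14.6% and 12.5% of the same sum over 6 arrays of each age. Among the 4 P7 arrays other than KO2 and WT3 it took 25.4%. A single contrast takes a larger share by construction when fewer arrays are compared, so this value is not comparable with the others. Thus the largest source of spread at P7 ran across the genotypes and was shared by 1 array of each.

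Whether this spread was one of maturity was examined on a scale set by the WT arrays of the other ages. The maturity index of an array is the slope of its deviation from the WT P0 mean on the change between WT P0 and WT adult, over 4017 probe sets that changed by more than 2 log2. It is 0 for WT P0 and 1 for WT adult, and no P7 array entered its definition. Plk3-KO arrays had indices of 0.456, 0.595 and 0.487, with a mean of 0.513 ± 0.073 (SD, n = 3). WT arrays had 0.470, 0.502 and 0.540, with a mean of 0.504 ± 0.035 (SD, n = 3). KO2 and WT3 had the highest index of their genotype on this scale, and the genotypes overlapped. After quantile normalization the indices were 0.482, 0.560 and 0.522 in Plk3-KO and 0.501, 0.533 and 0.507 in WT retinas, where WT2 and not WT3 was the highest WT array. The difference of 0.0092 on the deposited scale gave p = 0.9 in an exact permutation test, two-sided, in which 3 arrays against 3 cannot go below p = 0.1.

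The index joins probe sets of opposite course, and these did not tell the same story. Over the 2609 probe sets that fall with age, KO2 (0.659) and WT3 (0.606) were indeed the highest, with the other arrays between 0.419 and 0.452. Over the 1408 probe sets that rise with age, however, KO2 (0.488) and WT3 (0.427) were the lowest, with the other arrays between 0.519 and 0.586. After quantile normalization the indices of KO2 and WT3 over falling probe sets were 0.568 and 0.513, against 0.447 to 0.497 on the others, and over rising probe sets they were 0.551 and 0.499, against 0.526 to 0.590. On the deposited scale both arrays thus lay ahead over falling and behind over rising probe sets. After quantile normalization this held for WT3, whereas KO2 was ahead over falling probe sets and within the range of the others over rising ones. The name used here for KO2 and WT3, the 2 arrays that stand apart, takes no side on what sets them apart.

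**Figure D1:**
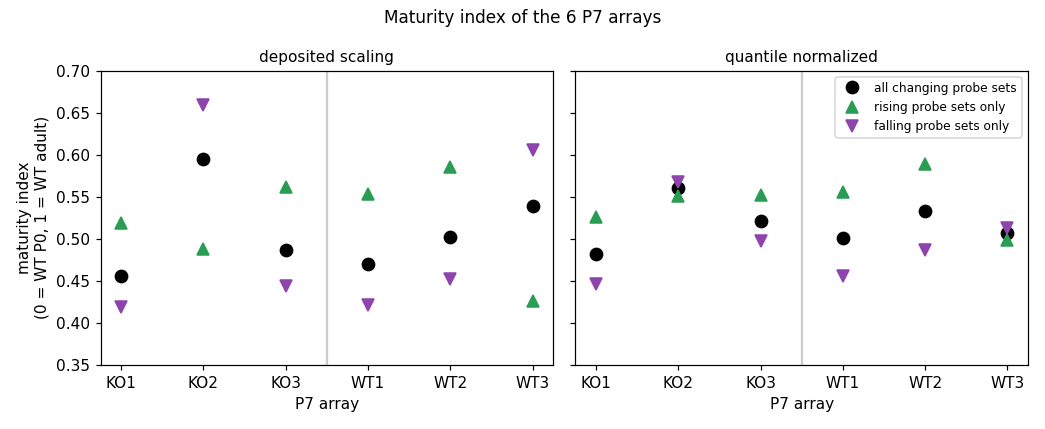
Maturity index (y axis, 0 = WT P0 mean, 1 = WT adult mean, no unit) of the P7 arrays (x axis, Plk3-KO left, WT right), from the deposited values and after quantile normalization. Each point is 1 array and 1 set of probe sets; on the deposited scale KO2 and WT3 are highest over falling probe sets (0.659 and 0.606) and lowest over rising ones (0.488 and 0.427).

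Array-wide measures moved with KO2 and WT3. The median log2 value was 6.4 on both, against 6.8 to 6.9 on the other 4, and 41.9% and 42.1% of probe sets lay above 7, against 47.7% to 48.6%. The 3' probe set of the actin control exceeded the 5' probe set by 1.6 log2 on both, against 0.8 to 1.1 on the others. The spiked bioB control was lower (9.57 and 9.60, against 10.13 to 10.63) and creX was higher (15.3 on both, against 14.25 to 14.75). On the adult arrays the actin difference was 1.6 to 2.7 and 4 of 6 arrays had a median of 6.3 to 6.5, whereas on the P0 arrays these were 1.0 to 1.3 and 6.8 to 7.1. In the median and the actin difference, then, the 2 arrays lay nearer to the adult than to the P0 arrays. A fit with the actin difference as covariate is given with the counts below, and the part of the other measures was not tested.

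The deviation differed with the level of a probe set and with its course in development. Among all tested probe sets averaging above 11, the median deviation from the mean of the other 4 arrays was 0.33 on KO2 and 0.35 on WT3. Among those at or below 9 it was −0.40 on both. Within probe sets that changed by less than 0.5 log2 from P0 to adult, the medians above 11 were 0.43 and 0.45, and those at or below 9 were −0.28 and −0.25. Probe sets at or below 9 that fall with age deviated furthest, by −1.18 and −0.80, and those at or below 9 that rise with age deviated by −0.38 and −0.53. Above 11, the 207 rising probe sets deviated by 0.28 on KO2 and 0.08 on WT3, and the 77 falling ones by 0.10 on KO2 and 0.50 on WT3. Dim transcripts thus read lower on both arrays in all 3 classes of course, while abundant ones read higher by amounts that differed between the arrays where they change with age.

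In single probe sets the 2 arrays deviated in the same direction far more often than in opposite ones. KO2 lay more than 1 log2 above the mean of KO1 and KO3 in 587 probe sets and more than 1 below it in 2763. WT3 did so against WT1 and WT2 in 901 and 3289. Both exceeded 1 in 368 and both fell short by more than 1 in 1522, while 17 went in opposite directions. Across probe sets the 2 deviations correlated at r = 0.66, given as a description.

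**Figure D2:**
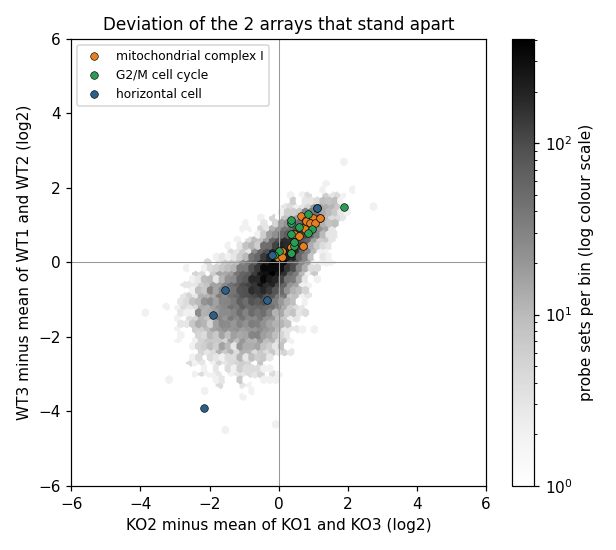
Deviation of KO2 from the mean of KO1 and KO3 (x axis, log2) against that of WT3 from the mean of WT1 and WT2 (y axis, log2) for the 21390 tested probe sets. Grey hexagons show the number of probe sets on a log colour scale and coloured points are tested genes of 3 groups; the cloud runs along the diagonal (r = 0.66), complex I and G2/M genes lie to the upper right, and horizontal cell genes reach furthest to the lower left.

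Gene groups separated along the same division. All 19 tested subunit genes of mitochondrial complex I, the first enzyme of the respiratory chain, averaged higher on KO2 and WT3 than on the other arrays. Their median was 0.85, and 18 were higher on both. All tested probe sets above 11 deviated by 0.33 on KO2 and 0.35 on WT3. The list averaged 12.6, 13.3 and 12.7 in Plk3-KO and 12.7, 12.5 and 13.4 in WT retinas. After quantile normalization these means were much closer, at 12.742, 12.926 and 12.844 in Plk3-KO and 12.854, 12.784 and 12.995 in WT retinas. Ndufc2 stood at 13.6, 14.8 and 13.6 in Plk3-KO and at 13.6, 13.4 and 14.7 in WT retinas. Ndufs8 stood at 12.6, 13.7 and 12.4 in Plk3-KO and at 12.6, 12.4 and 13.7 in WT retinas. In both genes the 2 arrays apart were the highest of their genotype by about 1 log2, and the genotype means were nearly equal. Hspa8 and Hsp90aa1, abundant cytosolic chaperones, behaved alike. Hspa8 stood at 14.0, 14.9 and 14.1 in Plk3-KO and 13.9, 13.9 and 15.3 in WT retinas, and the 10 heat shock genes had a median of 0.58 on the 2 arrays. After quantile normalization the heat shock list averaged 11.46, 11.66 and 11.46 in Plk3-KO and 11.44, 11.60 and 11.91 in WT retinas.

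Cell cycle genes, which fall with age, were not lower on the 2 arrays but higher. Of the 14 tested G2/M genes all 14 were higher on average on KO2 and WT3, with a median of 0.73, and of the 15 tested G1/S genes 13 were, with a median of 0.68. Top2a, the topoisomerase that resolves chromosomes in mitosis, stood at 8.4, 9.4 and 8.2 in Plk3-KO retinas and at 8.8, 8.3 and 10 in WT retinas. Bub1b, a spindle checkpoint kinase, stood at 7.1, 8.8 and 6.7 in Plk3-KO and 7.0, 7.0 and 8.5 in WT retinas. Pcna, the sliding clamp of DNA replication, stood at 12.7, 13.7 and 12.6 in Plk3-KO and 12.8, 12.6 and 13.6 in WT retinas. These genes, of which Top2a and Bub1b lie in the middle or low range of the arrays, thus went against the deviation of other falling probe sets of that range.

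Genes of several inner retinal neurons were lower on the 2 arrays, and those of vascular cells in part. The medians were −0.91 over 6 horizontal cell genes, −0.54 over 10 bipolar cell genes and −0.43 over 15 amacrine cell genes, beside −0.23 over all tested probe sets. Of 9 vascular genes 8 were lower on average on KO2 and WT3 (median −0.55) and 5 on both, where 13606 of all 21390 tested probe sets were lower on average. All tested probe sets at or below 9 deviated by −0.40 on both arrays. The vascular list averaged 8.97 on KO1 and 8.93 on KO2, and after quantile normalization 8.905 and 9.152, so that KO2 was not clearly lower. Pdgfrb, a receptor of pericytes, stood at 8.3, 7.5 and 8.8 in Plk3-KO and 9.1, 8.7 and 7.4 in WT retinas. Prox1, a transcription factor of horizontal cells, stood at 10.9, 8.5 and 10.4 in Plk3-KO and at 10.5, 10.7 and 6.7 in WT retinas. Lhx1, a further horizontal cell factor, stood at 8.6, 6.5 and 8.2 in Plk3-KO and 8.0, 8.4 and 6.8 in WT retinas. Ndrg1 and Septin4 of the same list did not follow, and Ndrg1 was higher on both arrays, at 14.6 on KO2 and 14.8 on WT3 against 13.2 to 13.6 on the others. Rod genes, whose array means ran from 11.9 to 12.6, had a median of 0.39 on the 2 arrays. This was near the 0.33 on KO2 and 0.35 on WT3 of all tested probe sets above 11. Photoreceptor synapse genes had a median of −0.29, near that of all tested probe sets, although their array means ran from 11.1 to 11.6.

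Markers of neighbouring tissue moved with KO2 alone in part. The 9 tested genes of the pigment epithelium, the layer behind the retina, averaged 8.89, 10.46 and 9.47 in Plk3-KO and 9.62, 9.84 and 9.66 in WT retinas. Ttr stood at 12.7, 14.7 and 13.7 in Plk3-KO and 13.3, 13.7 and 13.6 in WT retinas, and the melanosome gene Pmel at 9.4, 11.4 and 10.6 in Plk3-KO and at 10.2, 10.6 and 11 in WT retinas. KO1 was the lowest and KO2 the highest of all arrays in both genes. Of the defining markers, Rpe65 stood at 7.2 to 8.8 in Plk3-KO and 6.7 to 9.4 in WT retinas, and Best1 lay at 3.8 or less on each array. Genes of vascular cells, microglia and astrocytes had ranges of 8.93 to 9.56, 8.92 to 9.34 and 9.88 to 10.08 in Plk3-KO and of 8.69 to 9.37, 9.11 to 9.39 and 9.60 to 10.35 in WT retinas, which overlapped. The part of such tissue in the differences below was not tested.

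**Figure D3:**
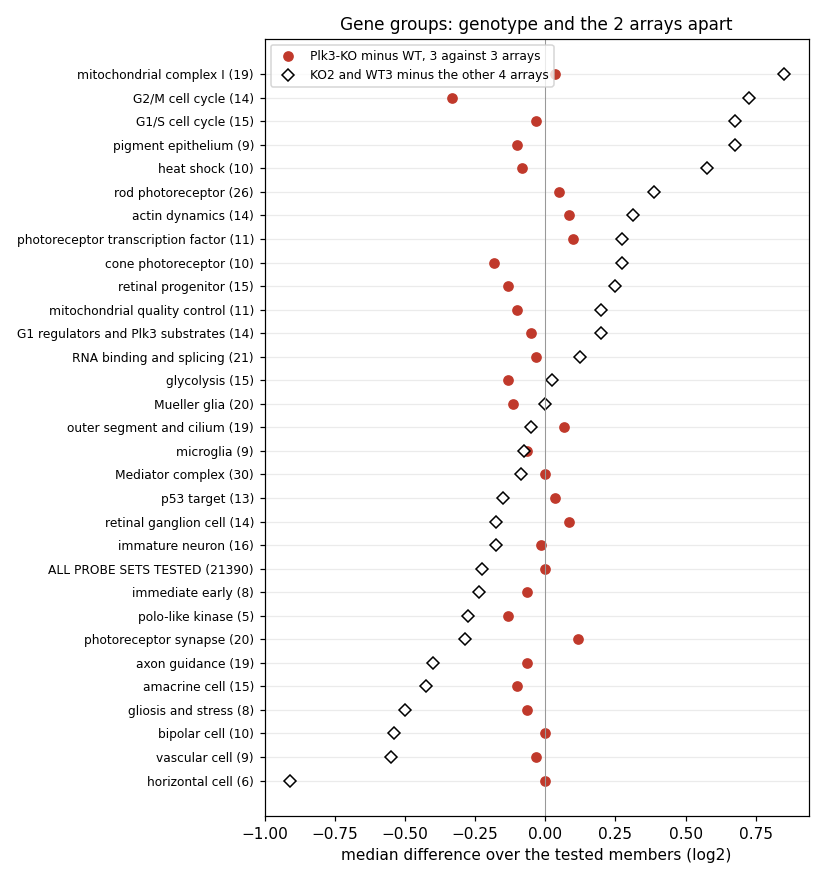
Median log2 difference (x axis) over the tested members of each gene group (rows, number tested in brackets), for Plk3-KO minus WT (red points) and for KO2 and WT3 minus the other 4 arrays (open diamonds). The diamonds run from −0.91 for horizontal cell genes to 0.85 for complex I genes, while the red points lie within 0.2 of 0 apart from G2/M genes at −0.33.

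Some of the genes furthest from their own group on KO2 or WT3 marked single arrays rather than both. Xist, the non-coding RNA that silences one X chromosome in females, stood at 14.1, 5.2 and 6.1 in Plk3-KO and at 6.3, 5.5 and 14.8 in WT retinas. Eif2s3y, a Y-linked translation factor gene, stood at 1.0, 9.6 and 10.6 in Plk3-KO and 10.5, 10.3 and 2.7 in WT retinas. The Y-linked genes Uty and Kdm5d followed Eif2s3y, so that KO1 and WT3 carried the female pattern and the other 4 arrays the male one. The labels give no sex. The pattern was matched between genotypes, with 1 female array in each, and differed between KO2 and WT3, the arrays that stand apart.

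Some other genes switched between levels without fully following genotype, this sex pattern or the 2 arrays. Pde6h, the inhibitory subunit of the cone phosphodiesterase, stood at 7.8, 12 and 8.3 in Plk3-KO retinas and at 11.5, 11.3 and 8.0 in WT retinas. Opn1sw, the short-wave cone opsin, had the same arrays high and low over a far smaller range, at 12.3, 12.7 and 12.3 in Plk3-KO and 12.7, 12.7 and 12.4 in WT retinas. Gnat2, the cone transducin, did follow the 2 arrays, with KO2 and WT3 highest, at 11.1, 11.9 and 11.1 in Plk3-KO and 11.3, 11.3 and 11.8 in WT retinas. Mtmr7, a phosphoinositide phosphatase gene, stood at 9.2, 10.6 and 5.3 in Plk3-KO and 5.3, 5.0 and 10.7 in WT retinas, with KO2 and WT3 highest but KO1 far above KO3. Riok3, a kinase gene, stood at 11.4, 11.5 and 10.7 in Plk3-KO and at 7.0, 6.7 and 10.7 in WT retinas, where WT3 lay with the Plk3-KO arrays. In Pde6h, Mtmr7 and Riok3 the WT arrays split into a low and a high level with none between, and so did the Plk3-KO arrays of Pde6h.

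Against this spread, differences between Plk3-KO and WT retinas were small. The median absolute difference was 0.13 log2 and its median standard error 0.30, and 95.0% of tested probe sets differed by 0.5 or less. The 95th and 99th percentiles of the absolute difference were 0.53 and 0.90. The median SD within a genotype was 0.31 in Plk3-KO and 0.32 in WT retinas at P7, over the same probe sets 0.21 and 0.23 at P0, and 0.38 and 0.32 in the adult. A typical genotype difference at P7 was thus well inside the spread between arrays of 1 genotype, a spread that includes KO2 and WT3.

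Limma, fitted to all 18 arrays, called 0 of 21390 probe sets at an adjusted p under 0.05 (0.0%, Benjamini-Hochberg), and the smallest adjusted p was 0.725. It belonged to 1434087_at, which carries no single gene symbol and so is outside the genes named below, at 11.4, 11.4 and 11.3 in Plk3-KO and 10.2, 10 and 10.2 in WT retinas, 1.23 apart with a standard error of 0.22. An unadjusted p under 0.05 was reached by 119 (0.556%), of which Plk3-KO was the higher genotype in 65 (0.304%) and the lower in 54 (0.252%). This is far below the fraction of 0.05 that the threshold passes with no difference at all. With a term for KO2 and WT3, described below, the median standard error was 0.27 in place of 0.30. On the P7 arrays alone it was 0.18 in place of 0.29. The absence of calls therefore does not show that the genotypes are alike. The methods' t-test reached an unadjusted p under 0.05 in 250 probe sets (1.17%), 86 higher and 164 lower, and called 0 after adjustment, with 3 probe sets that had no spread left without a p. In 410 probe sets (1.92%) all arrays of one genotype lay beyond all arrays of the other, 169 (0.79%) with Plk3-KO above and 241 (1.13%) with Plk3-KO below. With no difference and no ties, 3 arrays against 3 would lie apart in a fraction of 0.1. Weights for each array (limma's arrayWeights) gave 109 calls, 51 higher and 58 lower, but these weights ranged from 0.171 for WT3 and 0.236 for KO2 to 22.0 for WT1, so that WT1 carried nearly all of the WT mean. Without WT2, 1 probe set was called, that of Aldh4a1.

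Differences above 1 log2 were found in 137 probe sets (0.64%), Plk3-KO being the higher in 96 (0.449%) and the lower in 41 (0.192%). In 85 of them 1 genotype averaged 7 or less, so that the size is not firm, and in 52 both lay above 7. Only 31 of the 137 showed no overlap between genotypes, 15 higher and 16 lower. When KO2 and WT3 were left out, 58 of the 137 still differed by more than 1 in the same direction and 9 changed sign. Of the 31 without overlap, 27 kept a difference above 1. This contrast follows in part from the choice, since a probe set without overlap keeps its direction whichever arrays are left out. It is therefore given as a description.

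Each array moved the count of large differences. It was 532 without KO2, of which 465 were higher in Plk3-KO, and 203 without WT3, of which 163 were lower. The comparison thus leaned to higher values in Plk3-KO where WT3 was in it without KO2, and to lower values where KO2 was in it without WT3. The count was 245 without KO1, 172 without KO3, 399 without WT1 and 548 without WT2, the last with 473 higher. Without both KO2 and WT3 it was 131, with 56 higher and 75 lower, so that the excess of higher values among all 6 arrays was not seen in the remaining 4. A term for the 2 arrays in the fit, chosen after the data were seen, left the differences as they were and called 0 probe sets, with 298 at an unadjusted p under 0.05, 226 higher (1.06%) and 72 lower (0.337%). With the actin difference as covariate, also chosen after the data were seen, limma called 0, with 301 differences above 1 and 810 probe sets at an unadjusted p under 0.05 (3.79%), 683 higher (3.19%) and 127 lower (0.594%). The balance of directions at an unadjusted p under 0.05 moved with single arrays too, to 252 higher and 55 lower without WT1 and to 480 higher and 88 lower without WT2. With the maturity index as covariate limma likewise called 0, with 178 differences above 1 and 193 probe sets at an unadjusted p under 0.05.

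**Figure D4:**
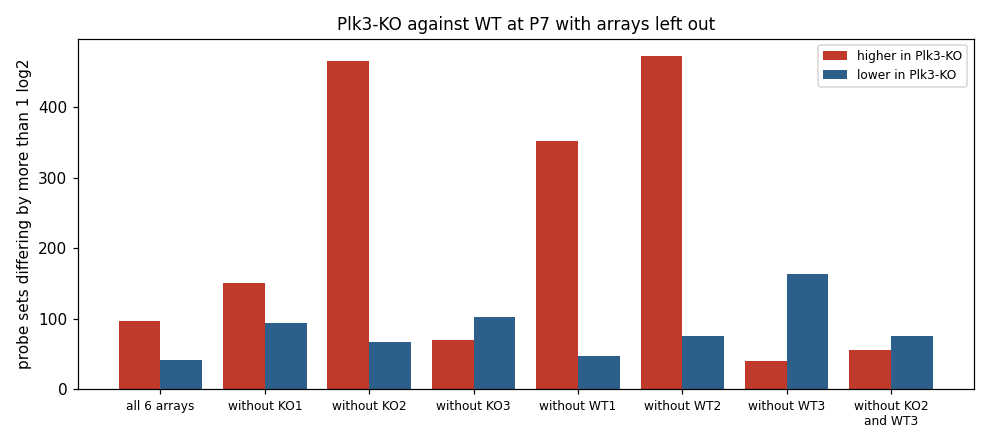
Number of probe sets differing by more than 1 log2 between Plk3-KO and WT at P7 (y axis, bars from 0, red higher and blue lower in Plk3-KO) with all 6 arrays and with arrays left out (x axis). Bars of higher probe sets reach 465 without KO2 and 473 without WT2, lower ones reach 163 without WT3, and the bars stand at 56 and 75 without KO2 and WT3 together.

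The genes with the smallest p lay mostly on chromosome 4, which also carries Plk3. Of the 10 genes with the smallest p, 8 were on that chromosome, as were 9 of the 10 with the smallest p when the maturity index was a covariate, and 8 genes were in both lists. None passed (adjusted p = 1 in limma for each gene named below unless stated). Their values are given as a description, since the same comparison chose them.

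Pink1, the kinase that marks damaged mitochondria for removal, was measured by 1441937_s_at at 9.8, 9.9 and 9.7 in Plk3-KO and at 11.5, 11.2 and 11.3 in WT retinas. The difference was −1.53 with a standard error of 0.31, and −1.60 without KO2 and WT3. Its further probe set, 1451148_at, stood at 10.8, 11 and 10.8 in Plk3-KO and at 12.4, 12.2 and 11.4 in WT retinas. On both probe sets all Plk3-KO arrays lay below all WT arrays, and KO2 lay with its genotype.

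Ndufs5, an accessory subunit of complex I, stood at 11.2, 11.2 and 11.3 in Plk3-KO and at 12.5, 12.2 and 12.5 in WT retinas. The difference was −1.17 with a standard error of 0.26. It was the exception in its complex: the other complex I genes differed between genotypes by −0.17 to 0.13 and were spread by KO2 and WT3, whereas Ndufs5 differed by 0.05 between the 2 arrays and the rest. The 19 genes of the list held 1 with an unadjusted p under 0.05, beside 119 of 21390 (0.556%) over all tested probe sets. This 1 was Ndufs5, itself named for its small p, and the median difference of the list was 0.03.

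Cap1, an adenylyl cyclase-associated protein that binds actin and promotes its turnover, stood at 10.9, 10.1 and 11.5 in Plk3-KO and at 9.4, 9.1 and 8.6 in WT retinas. The difference was 1.80 with a standard error of 0.48, and 1.95 without KO2 and WT3. On 1417462_at, its second probe set, the values were 8.9, 7.4 and 9.7 in Plk3-KO and 7.1, 7.5 and 5.3 in WT retinas, a difference of 2.03 with overlap. Both KO2 and WT3 were the lowest of their genotype on the first probe set, and the distance between the genotypes was about the same with and without them.

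Hp1bp3, a histone H1-related heterochromatin protein, stood on 1439845_at at 8.6, 8.6 and 8.5 in Plk3-KO and at 10.2, 10 and 9.4 in WT retinas. Its other tested probe set, 1415751_at, stood at 12.5 to 12.6 in Plk3-KO and 12.6 to 12.8 in WT retinas. Emc1, a subunit of the membrane protein insertion complex of the endoplasmic reticulum, stood on 1436709_at at 8.6, 8.4 and 8.8 in Plk3-KO and at 10.2, 10.4 and 9.2 in WT retinas, but its other probe sets differed by −0.20 and 0.57. In both genes WT3 lay closest to the Plk3-KO arrays, so that the difference without KO2 and WT3 was larger, −1.55 for Hp1bp3 and −1.60 for Emc1, and in both the probe sets of a gene disagreed.

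Epha8, an ephrin receptor of axon guidance, stood at 8.3, 7.7 and 8.6 in Plk3-KO and at 9.2, 9.1 and 9.0 in WT retinas, which lay apart by −0.90 with a standard error of 0.25. It was the 1 of 19 axon guidance genes with an unadjusted p under 0.05, beside 0.556% of all tested probe sets. Epha8 was itself named for its small p, and the median of the list was −0.07. Zfp593, a zinc finger gene, was among the smallest p with the maturity covariate, at 7.4, 9.0 and 7.5 in Plk3-KO and 8.8, 8.6 and 9.7 in WT retinas, and KO2 lay within the WT range. Zfp991, a further zinc finger gene, differed by 1.60 on 1451477_at, where WT averaged 5.70, and by −1.80 on 1424784_at. On 1424784_at the values were 5.6, 8.9 and 5.0 in Plk3-KO and 8.2, 7.5 and 9.2 in WT retinas, so KO2 lay with WT. The 2 probe sets of Zfp991 thus differed in sign, and KO2 sided with its genotype on only 1 of them.

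Khdrbs1, which encodes the RNA-binding protein Sam68, had the largest difference among non-overlapping probe sets with 1 symbol and both means above 7. On 1438462_x_at it stood at 8.3, 11.7 and 7.8 in Plk3-KO and at 12.3, 12 and 12.7 in WT retinas, which gave −3.07 with a standard error of 0.97. KO2 lay only 0.3 below the lowest WT array, and without KO2 and WT3 the difference was −4.10. The other tested probe sets of Khdrbs1 differed by −0.53 to 0.40. A low level on this probe set was therefore a feature of KO1 and KO3 and not of all Plk3-KO arrays.

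Plk3 itself showed the same split of the Plk3-KO arrays. Its 1 probe set stands for the 3' end of the mRNA and checks nothing about the deletion. It stood at 8.1, 6.1 and 7.7 in Plk3-KO and at 6.0, 6.3 and 6.0 in WT retinas. KO2 lay within the WT range, the difference was 1.20 (standard error 0.56), and without KO2 and WT3 it was 1.75. The library labelled KO2 is thus not told apart from WT by this probe set, although it is by both probe sets of Pink1 and by Ndufs5 on the same chromosome. Cap1 gave mixed readings, since KO2 lay beyond the WT arrays on 1 probe set and within their range on the other. For Hp1bp3, KO2 lay beyond the WT arrays on 1439845_at, while 1415751_at did not separate the genotypes and so gives no reading of KO2. Chosen after the values were seen, 29 probe sets of chromosome 4 had KO1 and KO3 both beyond all WT arrays by more than 1 log2 on average, and KO2 lay nearer to KO1 and KO3 in 11 and nearer to WT in 18. On the other chromosomes there were 70 such probe sets, with KO2 nearer to KO1 and KO3 in 16 and nearer to WT in 54. KO2 had no part in choosing these probe sets, so by the choice alone it leans toward WT. The counts are therefore a description and give no reading of the genotype of KO2.

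**Figure D5:**
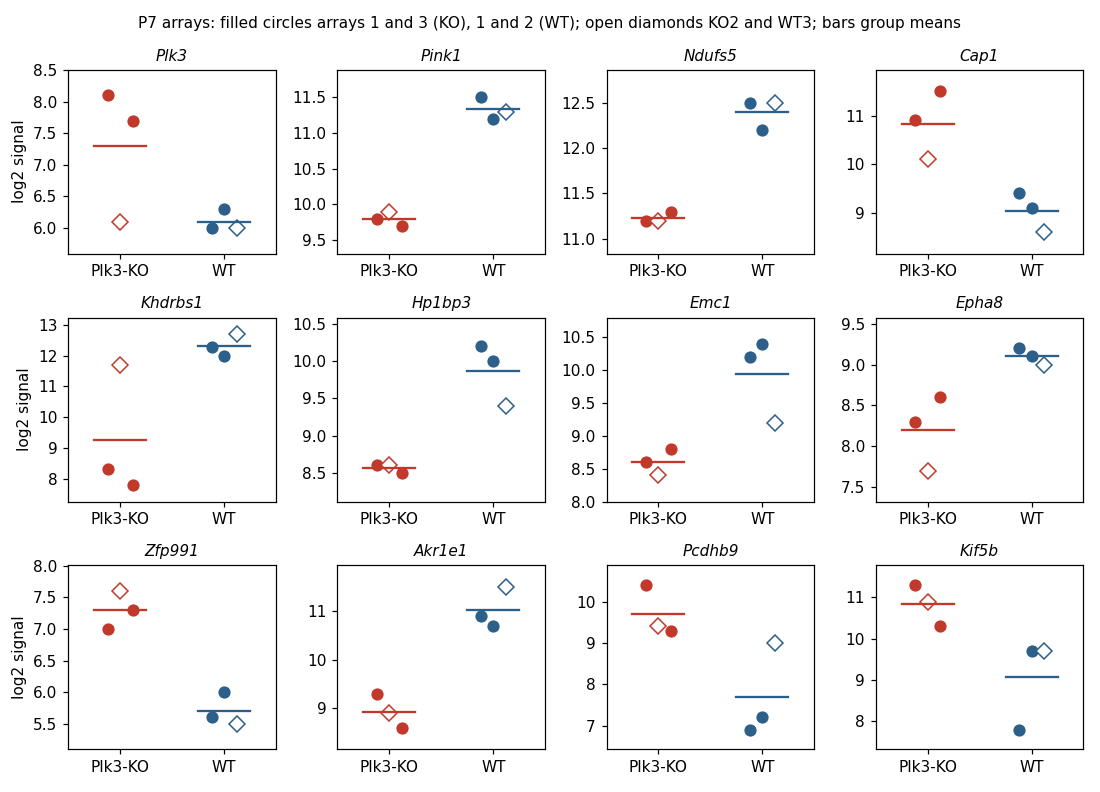
Log2 signal (y axis, scales differ between panels) of 12 named probe sets on the P7 arrays, Plk3-KO left in red and WT right in blue. Points are arrays, open diamonds are KO2 and WT3, and bars are group means; KO2 lies with its genotype for Pink1, Ndufs5 and Hp1bp3 and within or near the WT arrays for Plk3 (6.1) and Khdrbs1 (11.7).

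Chromosome 4 as a whole differed from the other chromosomes in its counts. Of its 1165 tested probe sets, 35 reached an unadjusted p under 0.05 (10 with Plk3-KO above, 25 with Plk3-KO below), or 3.0%, against 71 (46 above, 25 below) of 17527 on other chromosomes, or 0.405%. No overlap between genotypes was seen in 5.32%, against 1.76% elsewhere. A difference above 1 log2 was seen in 2.06%, against 0.462%, and without KO2 and WT3 in 2.32%, against 0.28%. The median absolute difference was 0.13 on chromosome 4 and 0.10 on the others, and the median deviation of the 2 arrays apart was 0.40 and 0.43 in size. The excess on chromosome 4 was therefore one of few probe sets, most of them lower in Plk3-KO, and it was also present when the 2 arrays were left out. Probe sets of 1 gene and neighbouring genes are not independent, and these shares are given with no test.

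The largest differences on other chromosomes were more varied. Akr1e1, an aldo-keto reductase gene on chromosome 13, stood at 9.3, 8.9 and 8.6 in Plk3-KO and at 10.9, 10.7 and 11.5 in WT retinas, and the genotypes differed by −2.10 with a standard error of 0.64. Its further probe set, 1446483_at, differed by −1.67 in the same direction, at 5.8 to 6.8 in Plk3-KO and 7.8 to 8.4 in WT retinas, without overlap. Both tested probe sets of Akr1e1 thus separated the genotypes.

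Pcdhb9, a clustered protocadherin of neuronal cell contacts, stood at 10.4, 9.4 and 9.3 in Plk3-KO and at 6.9, 7.2 and 9.0 in WT retinas, and its difference of 2.0 was 2.80 without KO2 and WT3. Clustered protocadherins are related in sequence, so that its signal may be shared with others, which was not tested. Kif5b, the heavy chain of the kinesin that carries organelles along axons, stood on 1418429_at at 11.3, 10.9 and 10.3 in Plk3-KO and at 7.8, 9.7 and 9.7 in WT retinas, whereas its other tested probe sets differed by only 0.20 to 0.37. Kcnj11, a subunit of the ATP-sensitive potassium channel, stood at 9.1, 8.1 and 9.4 in Plk3-KO and at 6.8, 7.9 and 8.0 in WT retinas. In these 3 genes 1 WT array, WT1 for Kif5b and Kcnj11 and WT3 for Pcdhb9, lay far from the other WT arrays.

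Bzw2, a regulator of translation initiation, stood on 1424608_a_at at 8.2, 9.3 and 9.3 in Plk3-KO and at 10.3, 10.6 and 9.6 in WT retinas, but at 11.7 to 11.9 in Plk3-KO and 11.6 to 11.9 in WT retinas on its most abundant probe set. Nwd1 on chromosome 8 stood at 8.6, 8.9 and 7.5 in Plk3-KO and at 8.0, 4.5 and 5.5 in WT retinas. Odf2l, a ciliary gene on chromosome 3, stood at 7.9, 7.8 and 8.0 in Plk3-KO and at 7.2, 6.7 and 5.4 in WT retinas, and its second tested probe set differed by 0.63. Aldh4a1 on chromosome 4, a mitochondrial enzyme of proline breakdown, stood at 7.9, 7.6 and 7.7 in Plk3-KO and at 4.8, 7.6 and 4.0 in WT retinas. Without WT2 its difference of 2.27 became 3.33 (limma, adjusted p = 0.0404). In Odf2l and Aldh4a1 the Plk3-KO arrays were close together and the WT arrays, averaging below 7, were spread, while Nwd1 was spread in both genotypes and its arrays overlapped.

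The study chose the genes it names on the arrays of this series, most of them for the adult retina, and Khdrbs1 and Med8 for P7 and P0. At these 2 ages it reports Khdrbs1 as upregulated and Med8 as downregulated without Plk3, and its text names no probe set. On 1438462_x_at Khdrbs1 went the opposite way, with differences of −3.07 at P7 and −2.40 at P0. Its other tested probe sets differed by −0.53 to 0.40 at P7. The study followed Rp1 and Tac1 by qPCR in the adult. P7 values are therefore no check of its adult results. At P7 the named genes were mostly level between genotypes on their most abundant probe sets. Besides Plk3 and Cap1, the 14 others differed by −0.50 to 0.57 on their most abundant tested probe set, and none passed. Other probe sets of these genes differed more: that of Khdrbs1 given above by −3.07, and 1442417_at of Med8, a subunit of the Mediator complex, by −1.83, at 4.5, 5.2 and 5.1 in Plk3-KO and 7.2, 7.1 and 6.0 in WT retinas. The Med8 probe set averaged below 7 in both genotypes and was not tested, and its abundant probe set differed by −0.03. Rp1, a microtubule-binding protein of the photoreceptor axoneme, stood at 13.2, 14.5 and 13.5 in Plk3-KO and at 13.1, 13 and 14.1 in WT retinas. KO2 and WT3 were again the highest of their genotype, and without them the difference of 0.33 was 0.30. Vim, the intermediate filament of Müller glia, stood at 12.4, 12 and 12.1 in Plk3-KO and at 12.4, 12.3 and 12.2 in WT retinas. Tac1, which encodes the precursor of substance P, stood at 11.1, 11.7 and 10.1 in Plk3-KO and at 10.7, 10.6 and 11.6 in WT retinas, with equal means. Mef2c, a transcription factor of neurons, differed by 0.57 with all arrays and by −0.15 without KO2 and WT3, where WT3 stood at 4.9 and the other arrays at 6.9 to 8.2. Rp1, Tac1 and Mef2c thus had KO2 and WT3 at the same end of their genotype, and Vim was nearly level on all arrays.

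Gene groups differed little between the genotypes. Of 33 lists, 32 had a median difference within 0.2 log2 of 0, beside a median of 0.0 over all tested probe sets, and 0 genes of any list were called. Over all tested probe sets 9291 differences lay above and 10412 below 0. The 26 rod genes had a median of 0.05, with 16 members above and 10 below 0. Sag, Nrl and Pdc, the last a regulator of transducin, differed by 0.07, 0.10 and 0.17. The 20 Müller glia genes had a median of −0.12, with Dbi, Car2 and Crym at −0.13, 0.00 and −0.33, and the 15 amacrine cell genes one of −0.10, with 2 members above and 12 below 0. In none of these groups did a gene reach an unadjusted p under 0.05.

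G2/M genes were the list with a median beyond 0.2, at −0.33, with 13 of 14 tested members lower on average in Plk3-KO. Of all 21390 tested probe sets 10412 were lower. Genes of 1 list are not independent, so the count is a description. The array means of the list were 7.69, 8.15 and 7.41 in Plk3-KO and 7.95, 7.61 and 8.61 in WT retinas. KO3 was the lowest and WT3 the highest of all arrays, and the genotypes overlapped. Cdk1, the kinase that drives entry into mitosis, stood at 8.1, 8.9 and 7.8 in Plk3-KO and at 8.5, 8.1 and 9.2 in WT retinas, and Mki67, a marker of dividing cells, at 8.8, 8.9 and 8.3 in Plk3-KO and at 8.9, 8.2 and 9.7 in WT retinas. With all arrays 0 of the 14 genes reached an unadjusted p under 0.05, and without KO2 and WT3 the median was −0.25. In both genes the arrays of 1 genotype spanned more than the distance between the genotype means.

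The other polo-like kinases were close to level between genotypes. Plk2, which responds to neuronal activity, stood at 9.3, 9.1 and 9.7 in Plk3-KO and at 9.1, 10 and 9.4 in WT retinas. Plk1, the mitotic kinase, stood at 6.9, 7.2 and 6.8 in Plk3-KO and at 7.1, 6.8 and 7.7 in WT retinas, and Plk4, which starts the duplication of centrioles, at 8.8, 8.6 and 8.3 in Plk3-KO and at 9.1, 8.2 and 8.8 in WT retinas. Plk5 stood at 8.1, 8.0 and 9.1 in Plk3-KO and at 8.5, 9.1 and 7.8 in WT retinas. The differences of these 4 genes ran from −0.23 to −0.07 (limma, adjusted p = 1), within the spread between arrays.

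Whether a difference was particular to P7 was asked by the difference between ages. For P7 against P0 and for P7 against the adult, limma called 0 of 21390 probe sets (0.0% each). With arrayWeights these counts were 1 and 3285, where 1 adult WT array carried a weight of 24.0, so that the contrast with the adult turned on that weighting. The 10 genes of chromosome 4 named above for p or size had the same sign at all 3 ages. Cap1 differed by 1.80 at P0, by 1.80 at P7 and by 1.27 in the adult, and Khdrbs1 (1438462_x_at) by −2.40, −3.07 and −3.0. Pink1 differed by −0.37 at P0, by −1.53 at P7 and by −1.17 in the adult, and Epha8 by −0.17, −0.90 and −0.63. Genes of other chromosomes did not all keep their sign. Pcdhb9 differed by −0.40 at P0, by 2.0 at P7 and by −1.0 in the adult, and Nwd1 by −0.57, 2.33 and −0.90, while Akr1e1 differed by −1.57, −2.10 and −0.90. The contrasts of P7 with P0 and the adult were 2.40 and 3.0 for Pcdhb9 and 2.90 and 3.23 for Nwd1 (limma, adjusted p = 1), so these too were not told apart from the other ages.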

How the data were processed

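Total RNA of P7, P0 and adult retinas was hybridised to Affymetrix mouse genome arrays. Per the methods, the authors applied MAS5 background adjustment and scaling with the affy package in R and log2 transformed the signals; versions are not given in the sources used here. The deposited log2 values have 1 decimal and range from −5.1 to 19.2. No normalization was added, and precision is limited by the few arrays. Of 45101 probe sets, 34958 carry 1 symbol, 932 several and 9211 none; chromosomes came from the gene table of GRCm38.p6.

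R 4.3.3 with limma 3.58.1 was used: 1 mean per age and genotype over 18 arrays, eBayes with a mean trend (12 residual and 4.11 prior degrees of freedom), Benjamini-Hochberg over 21390 probe sets with a mean above 7 in either P7 genotype, threshold 0.05. The model was tested on simulated data. Exact permutation tests served single values. Lists use the most abundant probe set of each gene.

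Genes named are those the study names, the 10 with the smallest p (also with the maturity index as covariate), the 10 largest non-overlapping differences, the 3 most abundant of each list and the 5 furthest each way on KO2 and WT3; others (Ndufs8, Bub1b, Prox1, Lhx1, Kdm5d, Cdk1, Plk1, Best1, Rpe65, Pdgfrb, 1434087_at, and the probe sets set beside a named one) were chosen after their values were seen. Members, lists and tests were chosen with earlier results of these data known. Equal replicate numbers were not taken as pairs.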

Additional observations from a re-analysis of the deposited data

How the results depend on the processing

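Limma called 0 probe sets at P7 in each alternative except arrayWeights (109) and the fits with 1 array left out (0 to 1). At an unadjusted p under 0.05, 119 became 111 to 568 with 1 array left out (without KO1 174, WT1 307, WT2 568), 75 without KO2 and WT3, 193 with the maturity index as covariate (205 on the P7 arrays alone), 298 with a term for KO2 and WT3 (508 on the P7 arrays alone), 810 with a covariate for the actin 3' to 5' distance, 637 with no filter, 250 by the methods' t-test and 2218 with arrayWeights. The term and the actin covariate were chosen after seeing the data. The count above 1 log2, 137, became 172 to 548 with 1 array left out, 4305 with no filter, 64 with a minimum of 8 and 52 with both means above 7; more or fewer dim probe sets enter by construction. The maturity difference of 0.0092 ran from −0.0321 to 0.0376 with 1 array left out and was −0.0141 without KO2 and WT3. P7 against P0 and against the adult gave 0 calls except with arrayWeights (1 and 3285), added after seeing the data.

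Of 32 named probe sets, the 17 chosen by p or size kept their sign in each alternative. They were chosen on these same arrays, so the kept sign follows in part from the choice and is no support. Of the study's genes, 9 changed sign. With 1 array left out these ran from −0.53 to 0.63 (Car8), −0.23 to 0.77 (Casz1), −0.12 to 0.033 (Med8), −0.45 to 1.10 (Mef2c), −0.25 to 0.35 (Nhlh2), −0.13 to 0.067 (Nrarp), −0.05 to 0.68 (Rp1), −0.25 to 0.23 (Rp1l1) and −0.20 to 0.30 (Sebox). Without KO2 and WT3 they were −0.15 for Mef2c, 0.05 for Nrarp, −0.05 for Rp1l1 and −0.10 for Sebox. With arrayWeights they were −0.28 for Mef2c, 0.20 for Nrarp and −0.02 for Sebox, and for Rp1l1 −0.03 with the maturity index and −0.074 with the actin measure as covariate. The causes were not tested.

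A replicate block left 0 calls, 163 probe sets at an unadjusted p under 0.05, 137 above 1 log2 and the maturity difference of 0.0092 (exact sign-flip p = 1). Arrays of equal number had deviations that correlated at 0.448, −0.53 and −0.681, so not every array correlated best with its own number.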
